A study of Xenopus laevis with 15 samples.

Results

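The gene models described here are 61 unnamed transcription units of the frog Xenopus laevis whose RNA level was lower in embryos kept in 10 nM NRX204647 than in vehicle embryos, and lower again at 1 µM. They were taken from a table of 45099 gene models, of which 12791 have no gene symbol and a mean of at least 1 FPKM (fragments scaled for gene model length and library size) over 15 libraries. With V, L and H for log2(group mean FPKM + 1) at vehicle, 10 nM and 1 µM, a gene model was a member if V minus L and L minus H were each at least 0.4, if all 5 libraries at 10 nM lay below all 5 vehicle libraries, and if all 5 at 1 µM lay below all 5 at 10 nM. V minus L is called the first step below, and L minus H the second step. The members were therefore chosen on their measured levels, and their differences between groups are a description with no test.

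Whole embryos were exposed from stage 6 or 7 to stage 18 to 0.1% ethanol (vehicle), 10 nM NRX204647 or 1 µM NRX204647, with 5 libraries in each group. NRX204647, a code name, is an agonist of retinoic acid receptors. As the labels have it, the low dose acts on the gamma receptor alone and the high dose on the alpha, beta and gamma receptors. Embryos came from eggs fertilised in vitro, were kept as 25 to a dish, and were collected from each dish as 5 aliquots of 5 embryos, each aliquot giving 1 library. The replicates were from a single clutch, and no strain or genotype is given. No further dishes are named, so dish and treatment cannot be told apart. The SD values below give the spread between aliquots of a dish. The SE values, p-values and calls rest on that spread too, and do not separate treatment from dish.

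Retinoic acid is made from vitamin A by retinol dehydrogenases and aldehyde dehydrogenases and is broken down by CYP26 enzymes. It enters the nucleus and binds receptors that sit on DNA as dimers with retinoid X receptors, where ligand exchanges corepressors for coactivators. In the frog embryo it is known for setting hindbrain and posterior identity along the neural tube, for its part in somite and neural crest development, and for the loss of head structures when it is present in excess. In RNA from whole embryos, fewer cells of a type and less RNA per cell cannot be told apart.

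The 61 identifiers carry no name in the file (47 empty symbol cells and 14 dashes), and none was found in the RefSeq gene table used (0 of 61). That table matched 0 identifiers of the whole file, named gene models included, so the missing match says nothing about the members. No role is given to any of them here. The dash stood in 23.0% of the members and in 31.2% of all unnamed gene models above the level minimum.

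Relative depth, recovered from the steps between FPKM values, ran from 0.312 to 0.833 of the deepest library for vehicle, from 0.259 to 0.646 for 10 nM and from 0.535 to 1 for 1 µM. In vehicle replicate 3 the most abundant gene model took up 45.5% of all FPKM, against 23.6% to 31.8% in the other vehicle libraries, and the median of the 13192 tested gene models (mean of at least 1 FPKM) lay 0.12 below the group mean there on the log2(FPKM + 1) scale. Replicate 1 at 10 nM had the highest level of 29 of the 61 members in its group (47.5%), where it was highest for 31.9% of all tested gene models. Among the 1 µM libraries, replicate 4 was the only one in which a member was listed at 0, which was so for 4 members. The rule allows no member at 0 in a vehicle or 10 nM library. Depth differed between the groups, and its part in the pattern was not tested beyond the values without the shallow libraries given below.

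Requiring the first step left 1109 of the 12791 unnamed gene models, and requiring the second left 141. Requiring every 10 nM library below every vehicle library, met by 5.92% of all tested gene models, left 71. Requiring every 1 µM library below every 10 nM library, met by 6.06%, left 61. Of the 80 with both steps but overlapping groups, 30 overlapped between vehicle and 10 nM only, 10 between 10 nM and 1 µM only, and 40 at both. Among all 13192 tested gene models, named ones included, 64 met the stepwise condition (0.485%), and 148 met its mirror image for stepwise increase (1.12%). With the members' summed FPKM per library, the vehicle libraries stood between 941 and 1174, the 10 nM libraries between 585 and 658, and the 1 µM libraries between 293 and 336. The means were 1060 ± 104, 605 ± 30.0 and 313 ± 16.4 FPKM (SD, n = 5 each).

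Over the 61 members the first step had a median of 0.57 (0.41 to 3.58) and the second a median of 0.78 (0.42 to 2.18), both as differences of log2(group mean FPKM + 1). The same medians over all 13192 tested gene models were -0.0045 and -0.07. In plain ratios of group means, vehicle exceeded 10 nM by a median of 1.65-fold (1.33 to 15.5) and 10 nM exceeded 1 µM by a median of 2.29-fold (1.37 to 17.9). From vehicle to 1 µM the difference was at least 1 on the log2 scale for 52 members, at least 2 for 13 and at least 4 for 3. With limma on log2(FPKM + 1) and Benjamini-Hochberg adjustment over all tested gene models, 60 of the 61 were called lower at 10 nM than with vehicle, where 10.3% of all tested gene models were. All 61 were called lower at 1 µM than with vehicle (16.6% of all tested) and all 61 lower at 1 µM than at 10 nM (7.72%). The rule used these contrasts, so nothing is read from those counts. The background also depended on the scaling of the libraries. At 10 nM, 1358 of the 13192 tested gene models were called lower than with vehicle. The number was 3118 of 13224 when totals were equalised leaving the most abundant gene model aside. The member not called at 10 nM was Xelaev18020033m.g.

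**Figure D1:**
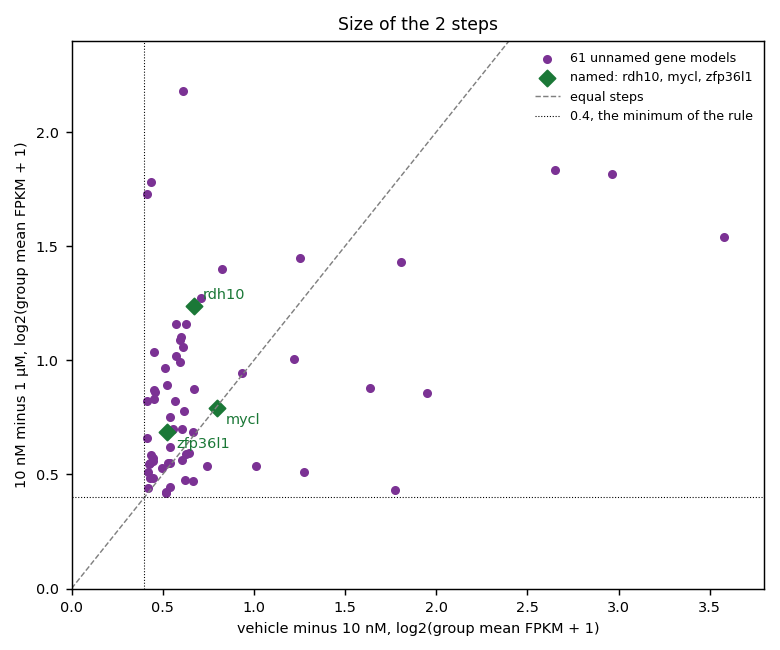
Size of the first step (horizontal axis, vehicle minus 10 nM) against the second step (vertical axis, 10 nM minus 1 µM), both as differences of log2(group mean FPKM + 1), for the 61 unnamed gene models (circles) and the 3 named ones that meet the same conditions (diamonds). The dotted lines mark the minimum of 0.4 and the dashed line equal steps. Of the 61, 42 lie above the dashed line and 19 below it, and 3 stand apart at the right with first steps over 2.6.

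The members with the largest differences were 3 gene models at 43.9 to 47.7 FPKM with vehicle. Xelaev18047264m.g stood at 52.7, 74.8, 25.7, 45.8 and 39.3 FPKM in vehicle replicates 1 to 5, at 6.61, 2.05, 1.43, 3.65 and 1.67 FPKM at 10 nM, and at 0.464, 0.177, 0.706, 0.429 and 0.243 FPKM at 1 µM. No library of a group reached into the next group, and the lowest vehicle library was still well above the highest at 10 nM. The group means of 47.7 ± 18.2, 3.08 ± 2.15 and 0.404 ± 0.208 FPKM (SD, n = 5 each, as for all means below unless stated) gave ratios of 15.5 between vehicle and 10 nM and 7.63 between the doses, and 118 in all. It rested on 542 to 2082 recovered reads per vehicle library and on 10 to 32 at 1 µM.

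Xelaev18044817m.g stood at 50.7, 72.4, 29.3, 45.0 and 38.2 FPKM with vehicle, at 9.53, 3.08, 3.71, 6.05 and 3.48 FPKM at 10 nM, and at 0.775, 0.606, 0.758, 0.865 and 0.770 FPKM at 1 µM. The vehicle libraries spread over a 2.47-fold range and those at 1 µM over a 1.43-fold range. Its means were 47.1 ± 16.2, 5.17 ± 2.70 and 0.755 ± 0.0932 FPKM, a 9.11-fold and then a 6.85-fold difference.

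For Xelaev18030964m.g the vehicle libraries were at 45.7, 54.2, 32.7, 43.1 and 43.9 FPKM and the 10 nM libraries at 15.9, 3.46, 2.59, 6.49 and 2.28 FPKM. At 1 µM it was at 1.296, 1.218, 1.281 and 1.251 FPKM in replicates 1, 2, 3 and 5 and listed at 0 in replicate 4. Replicate 1 at 10 nM was far above the other 4, whose mean was 3.71 ± 1.92 FPKM (SD, n = 4), against 6.15 ± 5.72 FPKM with it. The vehicle mean was 43.9 ± 7.69 FPKM.

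Another gene model began at a like vehicle level but kept more RNA at the high dose. Xelaev18045881m.g stood at 48.4, 60.6, 27.6, 38.5 and 34.5 FPKM with vehicle, at 18.2, 11.4, 10.7, 11.8 and 12.0 FPKM at 10 nM, and at 5.01, 5.71, 6.66, 7.90 and 7.32 FPKM at 1 µM. Its means of 41.9 ± 12.9, 12.8 ± 3.03 and 6.52 ± 1.17 FPKM gave ratios of 3.27 and 1.97.

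These 4 gene models were picked for the likeness of their libraries, once their values had been seen, so the likeness itself is no result. They had like orders of their libraries within the vehicle and 10 nM groups, which the rule did not use, but not at 1 µM. In vehicle embryos replicate 2 was the highest, replicate 1 came next and replicate 3 was the lowest for each of them. Over all tested gene models, replicate 2 was the highest for 27.9% and replicate 3 the lowest for 42.7%. The full vehicle order (2, 1, 4, 5, 3) was shared by Xelaev18047264m.g, Xelaev18044817m.g and Xelaev18045881m.g. It was found in 6 members (9.84%), these picked ones among them, and in 4.34% of all tested gene models. The picking thus set part of the 9.84%, and nothing is read from the difference. At 10 nM replicate 1 was the highest for all 4. At 1 µM the highest library was replicate 3 for Xelaev18047264m.g, replicate 4 for Xelaev18044817m.g and Xelaev18045881m.g, and replicate 1 for Xelaev18030964m.g, where replicate 4 was listed at 0. The highest vehicle library exceeded the lowest 2.91-fold for Xelaev18047264m.g, 2.19-fold for Xelaev18045881m.g and 1.66-fold for Xelaev18030964m.g, where the median over the members was 1.44-fold. The direction of these deviations was that of the tested gene models as a whole in vehicle replicates 2 and 3 (0.07 above and 0.12 below the group mean at the median) and in 10 nM replicate 1 (0.08 above), at a smaller size.

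**Figure D2:**
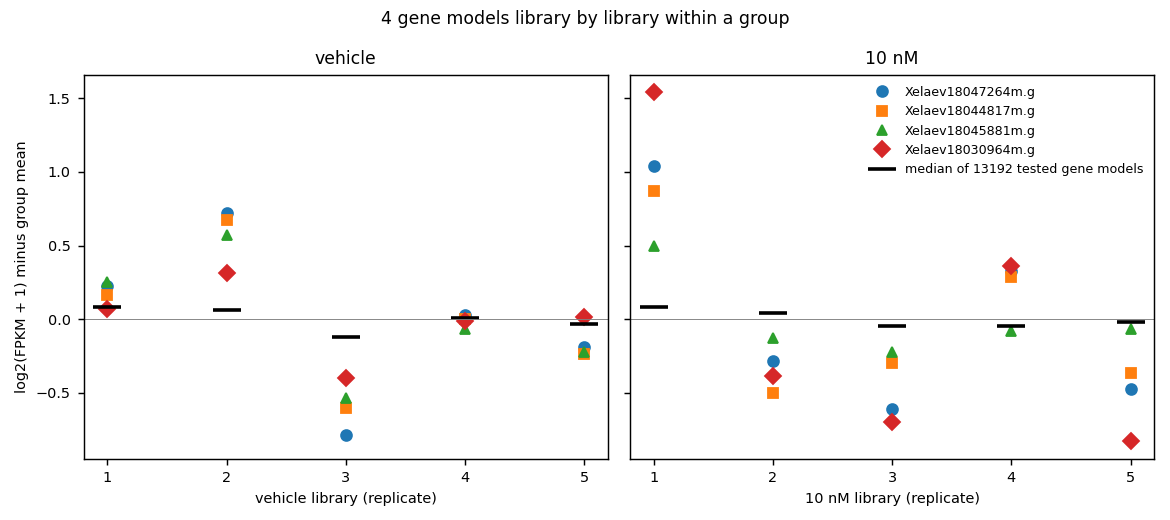
Level of 4 gene models in each vehicle library (left) and each 10 nM library (right), as log2(FPKM + 1) minus the mean of the group, with black bars for the median of the 13192 tested gene models. The 4 were picked for their like libraries. All 4 are highest in vehicle replicate 2 and lowest in vehicle replicate 3, and all 4 are highest in 10 nM replicate 1.

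The next in size started lower. Xelaev18017433m.g was at 12.64, 11.54, 15.04, 13.98 and 14.24 FPKM with vehicle and at 2.45, 2.63, 4.40, 2.53 and 3.70 FPKM at 10 nM. At 1 µM it was at 0.575, 0.492, 1.09 and 0.522 FPKM in replicates 1, 2, 3 and 5, on 12 to 23 reads, and listed at 0 in replicate 4. The first ratio was 4.29. Xelaev18033019m.g was at 6.91, 19.9, 18.1, 14.3 and 11.8 FPKM with vehicle, at 3.173, 2.502, 2.291, 3.771 and 2.910 FPKM at 10 nM, and at 0.918, 1.88, 1.46, 0.484 and 1.12 FPKM at 1 µM.

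Here vehicle replicate 1 was the low library, unlike in the gene models above, and it alone came near the 10 nM level. The means of Xelaev18033019m.g were 14.2 ± 5.18, 2.93 ± 0.583 and 1.17 ± 0.530 FPKM. Xelaev18021263m.g stood at 6.25, 6.91, 8.11, 6.69 and 6.67 FPKM with vehicle, at 1.85, 2.63, 1.72, 3.99 and 1.46 FPKM at 10 nM, and at 0.420, 0.0378, 0.331, 0.141 and 0.174 FPKM at 1 µM, the last on 1 to 11 reads. Its libraries were tight with vehicle and spread widely at both doses, and its means were 6.93 ± 0.704, 2.33 ± 1.03 and 0.221 ± 0.153 FPKM.

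Xelaev18031893m.g was at 4.82, 3.86, 2.68, 3.77 and 4.78 FPKM with vehicle, at 1.64, 0.468, 0.817, 1.59 and 1.17 FPKM at 10 nM, and at 0.0409, 0.0606, 0.114, 0.0567 and 0.0464 FPKM at 1 µM. Its second ratio, 17.9, was the highest of the 61 on the plain scale and rested on 3 to 9 reads per 1 µM library. Xelaev18013597m.g was at 17.9, 18.0, 17.0, 16.6 and 16.6 FPKM with vehicle, at 11.1, 7.83, 8.66, 8.94 and 9.88 FPKM at 10 nM, and at 2.55, 2.77, 3.69, 2.54 and 2.96 FPKM at 1 µM. It showed narrow groups far apart, with means of 17.2 ± 0.656, 9.29 ± 1.26 and 2.90 ± 0.474 FPKM.

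**Figure D3:**
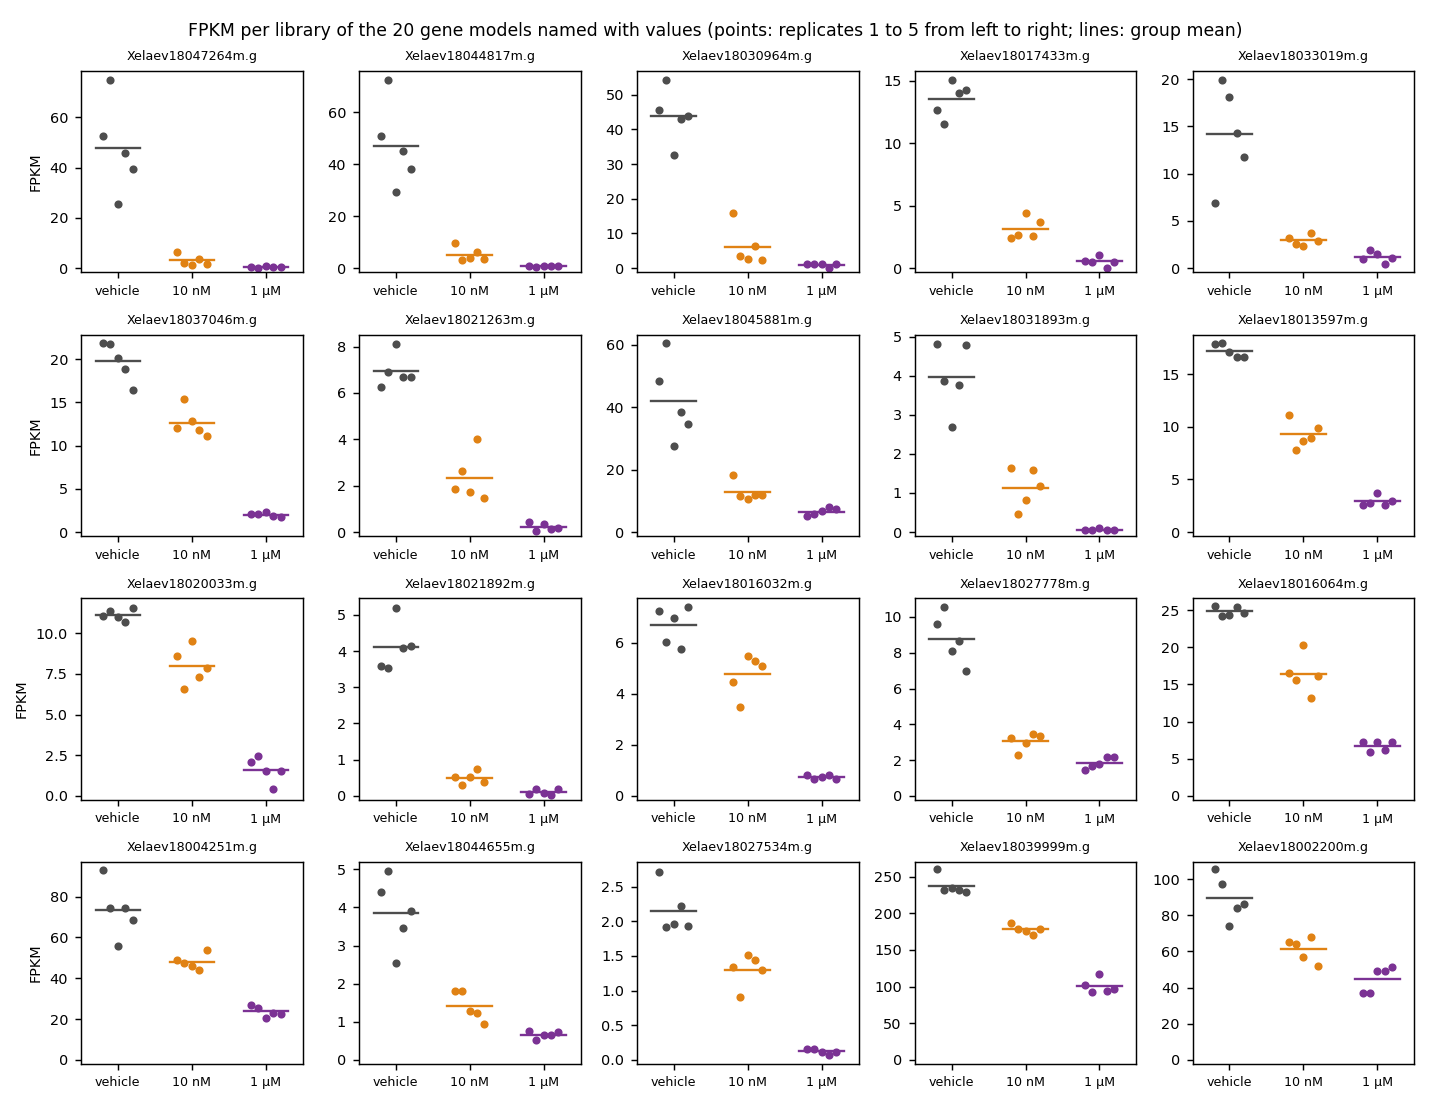
FPKM (vertical axis, from 0) in each library for the 20 members named with values, with the group means as lines. In every panel the 5 points at 10 nM lie below the 5 vehicle points and above the 5 points at 1 µM, as the rule required, and vehicle spread is widest in the panels of Xelaev18047264m.g and Xelaev18033019m.g.

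The members differed in how much of the whole log2 difference between vehicle and 1 µM was already present at 10 nM. This share had a median of 45.0% and ran from 19.4% to 80.4%. It was under 25% for 3 members, from 25% to 60% for 51 and over 60% for 7. On the log2(FPKM + 1) scale 42 members had the larger second step, and in plain ratios the first ratio was the larger for 12 of the 61. The pseudocount shrinks steps at low levels, and the second step starts from a lower level than the first.

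At the low-dose end was Xelaev18021892m.g, at 3.59, 3.53, 5.19, 4.08 and 4.15 FPKM with vehicle, at 0.533, 0.291, 0.527, 0.737 and 0.395 FPKM at 10 nM, and at 0.0586, 0.191, 0.0869, 0.0325 and 0.180 FPKM at 1 µM. With 80.4% of its difference at 10 nM it held the highest share, with ratios of 8.27 and 4.52. Xelaev18027778m.g followed with 71.4%. It was at 9.59, 10.6, 8.10, 8.67 and 7.01 FPKM with vehicle, at 3.24, 2.26, 2.96, 3.46 and 3.34 FPKM at 10 nM, and at 1.46, 1.70, 1.78, 2.15 and 2.16 FPKM at 1 µM, where the highest library stood just under the lowest at 10 nM.

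Xelaev18047264m.g (69.9%) and Xelaev18033019m.g (69.5%) came next. The fifth was Xelaev18044655m.g with 65.2%, at 4.40, 4.96, 2.53, 3.45 and 3.90 FPKM with vehicle, at 1.81, 1.81, 1.27, 1.22 and 0.937 FPKM at 10 nM, and at 0.745, 0.520, 0.643, 0.650 and 0.742 FPKM at 1 µM. Vehicle replicate 3 was again the lowest of its group here.

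At the high-dose end were 3 gene models with shares of 19.4%, 19.6% and 21.9%. Xelaev18016032m.g was at 7.25, 6.03, 6.96, 5.74 and 7.39 FPKM with vehicle, at 4.47, 3.48, 5.46, 5.27 and 5.08 FPKM at 10 nM, and at 0.833, 0.644, 0.740, 0.802 and 0.651 FPKM at 1 µM. The lowest vehicle and the highest 10 nM library nearly touched, while the 1 µM libraries were far below, and the ratios were 1.40 and 6.48.

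Xelaev18020033m.g was at 11.04, 11.38, 10.98, 10.68 and 11.59 FPKM with vehicle, at 8.62, 6.56, 9.55, 7.32 and 7.89 FPKM at 10 nM, and at 2.11, 2.47, 1.54, 0.433 and 1.51 FPKM at 1 µM. Its vehicle libraries were among the tightest, with an SD of 0.355 around 11.1 FPKM, and the value of replicate 4 at 1 µM rested on 3 reads. Xelaev18037046m.g was at 21.8, 21.7, 20.1, 18.8 and 16.5 FPKM with vehicle, at 11.99, 15.41, 12.79, 11.78 and 11.05 FPKM at 10 nM, and at 2.06, 2.07, 2.28, 1.84 and 1.75 FPKM at 1 µM. Its second step of 2.18 was the largest of the 61, with ratios of 1.57 and 6.30 and 94 to 198 reads per library at 1 µM.

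Of the other members with small shares, Xelaev18027534m.g (30.4%) was at 2.72, 1.91, 1.97, 2.21 and 1.92 FPKM with vehicle, at 1.338, 0.911, 1.506, 1.446 and 1.299 FPKM at 10 nM, and at 0.151, 0.162, 0.113, 0.0696 and 0.114 FPKM at 1 µM. Xelaev18016064m.g (33.1%) was at 25.6, 24.1, 24.4, 25.4 and 24.6 FPKM with vehicle, at 16.6, 15.6, 20.3, 13.1 and 16.2 FPKM at 10 nM, and at 7.24, 5.95, 7.24, 6.18 and 7.21 FPKM at 1 µM. Vehicle libraries of the latter differed by less than any other member's, with a coefficient of variation of 2.60%.

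**Figure D4:**
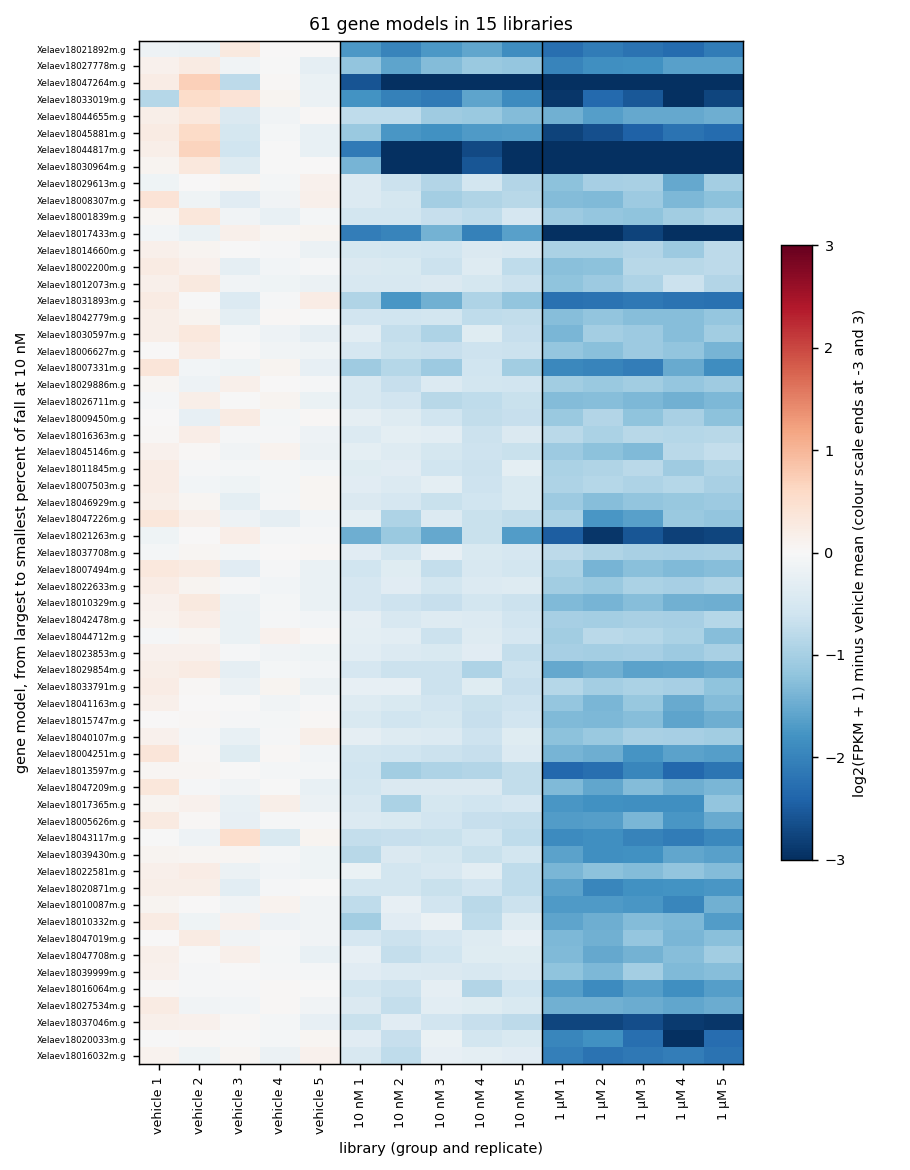
Each row is a member and each column a library, coloured by log2(FPKM + 1) minus the member's vehicle mean, from the highest share of the difference at 10 nM (80.4%, top) to the lowest (19.4%, bottom). The top rows are already dark at 10 nM, the bottom 3 rows darken mainly at 1 µM, and most rows between them darken in steps of similar size.

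The 3 most abundant members had ratios of vehicle to 1 µM of 2.37, 2.00 and 3.10, below the median of 3.82. Xelaev18039999m.g was at 261, 232, 234, 231 and 229 FPKM with vehicle, at 187, 179, 176, 170 and 179 FPKM at 10 nM, and at 102, 92.5, 117, 94.0 and 96.9 FPKM at 1 µM. Its groups were narrow and well apart, and its ratios were 1.33 and 1.78, the former the smallest of the 61. Its first step, 0.41 on the log2 scale in the values used here, was 0.68 when libraries were quantile normalized. It was 0.38 without vehicle replicate 1 and 0.37 with the libraries under 0.4 in relative depth left out, both under the minimum of 0.4. Xelaev18002200m.g was at 106, 97.2, 74.2, 84.3 and 86.5 FPKM with vehicle, at 65.4, 64.1, 56.7, 67.8 and 52.1 FPKM at 10 nM, and at 36.9, 37.1, 49.3, 49.4 and 51.2 FPKM at 1 µM. Here the 10 nM and 1 µM libraries were less than 1 FPKM apart at their nearest, and its ratio of vehicle to 1 µM was the lowest of all members. Its first step of 0.54 was 0.87 when libraries were quantile normalized, and it then no longer met the rule.

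Xelaev18004251m.g was at 93.2, 74.7, 56.0, 74.7 and 68.5 FPKM with vehicle, at 48.9, 47.7, 46.2, 44.2 and 53.9 FPKM at 10 nM, and at 27.0, 25.6, 20.7, 23.0 and 22.4 FPKM at 1 µM. Vehicle replicate 3 was close to the highest 10 nM library. Its means were 73.4 ± 13.5, 48.2 ± 3.66 and 23.7 ± 2.52 FPKM.

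The remaining 41 members had vehicle means from 1.74 to 35.0 FPKM (median 4.23) and 1 µM means from 0.105 to 15.1 FPKM (median 1.19). Their ratios ran from 1.36 to 2.34 between vehicle and 10 nM and from 1.49 to 15.97 between the doses, and their shares at 10 nM from 34.2% to 58.5%. Over all 61, 25 members had a vehicle mean of at least 10 FPKM, 9 lay from 5 to 10 and 27 under 5. At 1 µM the mean was under 1 FPKM for 25 members and still at least 10 FPKM for 6. The vehicle median was 6.67 FPKM, against 2.72 FPKM for all tested gene models, and the 1 µM median was 1.17 FPKM against 3.00 FPKM. The rule itself sets 1 µM below vehicle, and its level minimum is a mean over all 15 libraries. Nothing is therefore read from how these medians differ from those of all tested gene models.

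Whole reads could be recovered for 59 of the 61. No vehicle library held under 10 reads for any of these, 1 member had under 10 in a 10 nM library and 12 had under 10 in a 1 µM library, while 23 had at least 100 in every library. For 12 members, Xelaev18016064m.g and Xelaev18027534m.g among them, nearly all recovered reads share a common factor, so that their true number may be smaller. The 4 members listed at 0 in replicate 4 at 1 µM were Xelaev18030964m.g, Xelaev18017433m.g, Xelaev18043117m.g and Xelaev18029613m.g, with 16 to 20, 12 to 23, 2 to 8 and 6 to 12 reads in the other 4 libraries of that group. That library had 0.535 of the deepest library's depth and listed 1.27% of all tested gene models at 0, against 0.743% to 0.864% in the other 1 µM libraries. Relative gene model length, also recovered from the FPKM steps, had a median of 1.48 times the tested median for the 47 members without a common factor (middle range of 1.03 to 2.98 between quartiles). It reached 34.8 times. Lengths and read numbers may therefore be too large for some members outside the 12 as well, and the counts of reads above are upper values.

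Members just inside the thresholds were close to gene models left out. The smallest first steps were 0.413 (Xelaev18040107m.g) and 0.414 (Xelaev18039999m.g), and the nearest gene models outside had 0.396 and 0.393. For the second step the members were Xelaev18014660m.g at 0.417 and Xelaev18012073m.g at 0.425, against 0.395 and 0.376 outside. By mean level they were Xelaev18029613m.g at 1.01 FPKM and Xelaev18009450m.g at 1.05 FPKM, against 0.992 and 0.859 FPKM outside.

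Some identifiers of the 61 are close in number. Xelaev18010329m.g and Xelaev18010332m.g differ by 3, and Xelaev18007494m.g and Xelaev18007503m.g by 9. The file gives no positions, so no neighbourhood is read from this. The means of Xelaev18010329m.g were 2.38 ± 0.498, 1.21 ± 0.119 and 0.287 ± 0.0709 FPKM, and those of Xelaev18010332m.g were 4.96 ± 0.731, 3.18 ± 0.977 and 1.14 ± 0.231 FPKM.

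Among the 314 tested gene models with a symbol that is not a placeholder (an identifier in place of a gene symbol), 3 met the same conditions. The gene rdh10, for a retinol dehydrogenase that makes the precursor of retinoic acid, was at 26.65, 25.85, 18.8, 23.1 and 19.96 FPKM with vehicle, at 17.4, 14.6, 12.5, 12.1 and 13.3 FPKM at 10 nM, and at 5.20, 5.22, 5.94, 5.08 and 5.34 FPKM at 1 µM. Its share at 10 nM was 35.2%. The gene mycl, for a transcription factor of the Myc family, was at 11.04, 8.854, 10.97, 10.05 and 8.588 FPKM with vehicle, at 6.23, 4.67, 4.68, 4.89 and 5.86 FPKM at 10 nM, and at 3.06, 2.04, 3.31, 1.56 and 3.13 FPKM at 1 µM, with a share of 50.2%.

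The gene zfp36l1, for a protein that promotes the decay of AU-rich messenger RNAs, was at 10.6, 11.2, 10.1, 12.5 and 12.5 FPKM with vehicle. It was at 9.37, 7.28, 7.52, 6.73 and 7.19 FPKM at 10 nM. At 1 µM it was at 3.76, 4.06, 3.83, 5.44 and 4.68 FPKM, with a share of 43.3%. All 3 shares lay from 25% to 60%, as for 51 of the 61 unnamed members, and their libraries did not overlap between groups, as the same rule required.

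**Figure D5:**
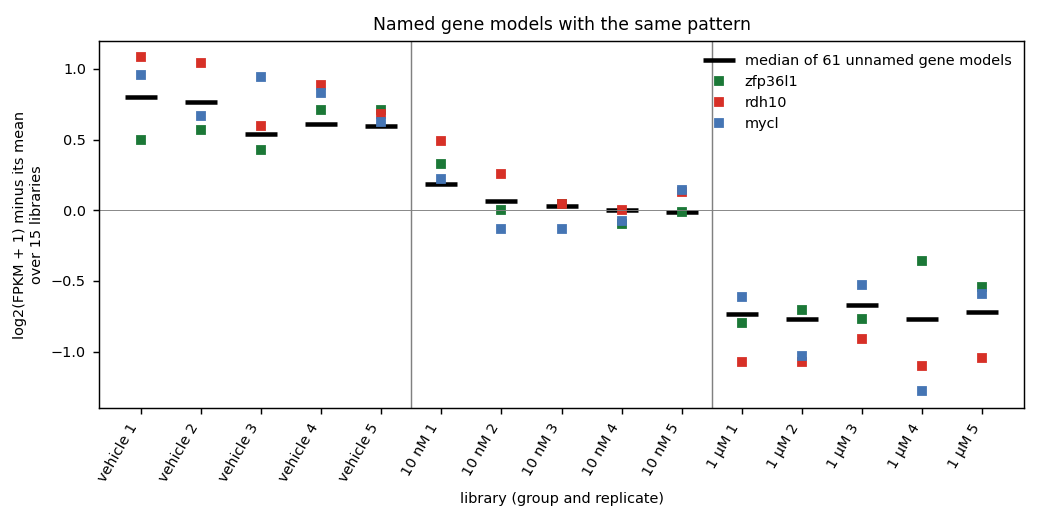
Level in each library as log2(FPKM + 1) minus its own mean over 15 libraries, for the median of the 61 unnamed members (black bars) and for rdh10, mycl and zfp36l1 (squares). The named genes lie close to the bars in every group, with rdh10 furthest below them at 1 µM in 4 of 5 libraries and mycl in replicate 4.

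By Pearson correlation over the 15 libraries with the median member profile, a description in which the groups drive the value, the named genes most like it were rdh10 (0.992), tll1-like.1 (0.972), zfp36l1 (0.959) and mycl (0.956). The gene tll1-like.1, related to tolloid proteases, had means of 2.79 ± 0.409, 2.03 ± 0.225 and 1.02 ± 0.115 FPKM, with a first step of 0.32 that missed the minimum. The next were chrnd, for a subunit of the muscle acetylcholine receptor (0.897), ttk, for a mitotic checkpoint kinase (0.896), zswim6 (0.896), ncoa6, for a nuclear receptor coactivator (0.895), rbbp4, for a histone-binding protein (0.888), and ldb3-like.1, related to a muscle Z-disc protein (0.882). In chrnd and ldb3-like.1 the vehicle and 10 nM libraries overlapped and the first steps were 0.16 and 0.15, so the difference lay at 1 µM. In ttk the groups were apart at both steps, of 0.37 and 0.23.

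Of 10 lists of retinoid, patterning and tissue genes with 180 symbols, 9 symbols were in the file and 8 were tested. The list of retinoic acid metabolism and receptors (35 symbols) held rdh10 alone, which was called lower in all 3 comparisons. Since rdh10 also met the stepwise conditions, which use these contrasts, nothing is read from its calls. Over the other lists, sox2, a transcription factor gene of neural progenitors, fell at 10 nM (limma log2 fold change -1.24 ± 0.27 SE, adjusted p = 0.00464) and at 1 µM (-0.70 ± 0.27, adjusted p = 0.0436, and 0.0151 to 0.3001 over the alternatives). The somite muscle list had 3 tested genes, of which chrnd and ldb3-like.1 fell at 1 µM against vehicle, with log2 fold changes of -1.03 ± 0.13 (limma adjusted p = 1.51e-05) and -0.77 ± 0.10 (adjusted p = 1.61e-05), and chrng had -0.16 ± 0.15 (adjusted p = 0.405). Between the doses chrng fell, with -0.54 ± 0.15 (limma adjusted p = 0.0172, up to 0.0923 over the alternatives). The neural crest gene sox9 and the orphan nuclear receptor gene nr2f6 rose at 1 µM against vehicle, by 0.89 ± 0.13 (limma adjusted p = 7.06e-05) and 0.59 ± 0.11 (adjusted p = 0.000618). The epidermal gene grhl3 was higher at 10 nM and lower at 1 µM than with vehicle, with log2 fold changes of 0.31 ± 0.08 (limma adjusted p = 0.00900, up to 0.166 over the alternatives) and -0.31 ± 0.08 (adjusted p = 0.00357). The tested genes of the tissue lists are known for muscle, neural, neural crest and epidermal tissue. Only 314 tested gene models carry a symbol that is not a placeholder, so no tissue content is read from which lists held a gene. No tested symbol was found for forebrain, posterior mesoderm, notochord, or the list of endoderm, blood and heart. With the 5 libraries under 0.4 in relative depth left out, the 10 nM calls of rdh10, sox2 and grhl3 were lost. That of grhl3 was also lost when libraries were quantile normalized and at equalised totals, and the 1 µM call of sox2 was lost in 13 of 24 alternatives.

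The mirror image of the rule gave 146 unnamed gene models with a stepwise increase. Their median share of the change at 10 nM was 43.7%, against 45.0% for the 61, and 44 of 146 had the larger first step, against 19 of 61. Both sets were chosen on their levels with the same minimum step, and the difference between these values was not tested. The pseudocount shrinks mainly the second step of the decreases and the first step of the increases. The likeness of these values therefore depends on the scale, and nothing is read from it. The number of stepwise decreases relative to increases depended on the scaling of the libraries and on which libraries were used. Decreases made up 29.5% of both kinds in the values used here. The percentage was 38.5% when libraries were scaled by their median ratio, 48.5% when they were quantile normalized, and 61.9% when totals were equalised leaving the top gene model aside. It was 19.6% with the shallow libraries left out, where 299 unnamed gene models met the mirrored rule. Of the 61, 59, 59 and 60 met the rule under the 3 scalings, in the order given, and all 61 were lower at each step. The last scaling moved the median first step of all tested gene models to 0.11, where the members' median was 0.73.

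With only the 10 libraries of at least 0.4 of the deepest library's depth (2 vehicle, 3 at 10 nM and 5 at 1 µM), 39 of the 61 still met the rule and 34 other unnamed gene models met it as well, 73 in all. The first step was under the minimum for 15 members, the second for 2, and the mean level for 9. Every member was lower at each step, by at least 0.18 and 0.36. The rule fixes that direction for any choice of libraries, since it set each library below all those of the group before. The median steps were then 0.52 and 0.76, and the first step was smaller than with all libraries for 49 of the 61. Of the 20 members named with values, 17 still met the rule.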

How the data were processed

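RNA of whole embryos (100 ng per library) was amplified to cDNA and read from 1 end over 50 nt by a method blind to strand, per the labels' protocols, so reads of overlapping genes, and of the paired gene copies of this species, may be shared. The authors deposited FPKM values, fragments scaled for length and library size. Per the submitters' processing notes the tools included Cufflinks, Bowtie and TopHat. Which versions, genome build and annotation were used is not given in the sources used here.

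FPKM as deposited entered the rule. Members and gene lists were chosen with earlier results of these data known. Members named with values were the 10 with the largest difference between vehicle and 1 µM, the 5 most abundant with vehicle, the 5 with the largest and 5 with the smallest share at 10 nM, and the 3 most abundant at 1 µM, which made 20. Background calls came from limma 3.58.1 in R 4.3.3 (3 groups in 1 fit, mean-variance trend, two-sided) on log2(FPKM + 1), tested on simulated data. Python 3.11.15, numpy 2.4.6, pandas 2.3.3 and matplotlib 3.10.9 were used.

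FPKM values are whole multiples of what 1 read is worth for 98.1% of tested gene models (within 0.03 reads), which gave relative depth and reads. Totals of recovered reads ran from 2511893 to 10305450 per library, and are too large where reads share a common factor. None of 30 replicate pairs was identical (chi-square per degree of freedom 5.68 to 20.0). Alternatives covered pseudocounts, level minimums, step sizes, scalings, the replicate block, voom on recovered reads and leaving out libraries.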

Additional observations from a re-analysis of the deposited data

Results flagged for a closer look

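Of 66 groups of 5 libraries looked at (20 members, their summed level and the relative depth), 5 had a library far from the other 4, where chance gives about 1 in 20. Xelaev18030964m.g was listed at 0 FPKM in replicate 4 at 1 µM, with the other 4 libraries between 1.218 and 1.296 FPKM. Xelaev18045881m.g was at 18.2 FPKM in replicate 1 at 10 nM, above the other 4 at 10.7 to 12.0 FPKM. The members' summed level was 658 FPKM in the same library, against 585 to 596 FPKM in the others of that group. Xelaev18031893m.g was at 0.114 FPKM in replicate 3 at 1 µM, against 0.0409 to 0.0606 FPKM. Xelaev18039999m.g was at 261 FPKM in vehicle replicate 1, against 229 to 234 FPKM.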

How the results depend on the processing

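The number of unnamed members, 61, was 19 with a pseudocount of 5, 18 and 6 with steps of at least 0.6 and 1, 25 at a mean of at least 5 FPKM, 117 when quantile normalized, 140 at equalised totals, and 141 where groups may overlap. Leaving out each library in turn gave 52 to 75, with 50 to 61 of the 61 among them, the fewest without vehicle replicate 1. Of the 3 named gene models, 0 were left with steps of at least 1, and 5 met the steps where groups may overlap. The median first step was 0.37 with a pseudocount of 5 and 0.73 at equalised totals, and the median second step 1.13 and 0.36 with pseudocounts of 0.1 and 5. Of the differences recomputed for the 20 members named with values, 744 stayed within the spread between libraries, 56 moved further, and none changed sign. All 56 came from another pseudocount or scaling. Most of the rest left out 1 library, which moves a mean of 5 libraries little and leaves unchanged a step that does not use it. The 744 are therefore no measure of stability. Leaving out a library or changing the pseudocount could not change a sign, because the rule keeps the groups of a member fully apart. The limma calls at 10 nM against vehicle were 3074 of 13192 tested gene models. They were 1560 of the 4007 with a mean of at least 5 FPKM, and 646 of 13257 without the shallow libraries. The calls at 1 µM were 6009 and 2250 against vehicle and 3136 and 1047 against 10 nM, in the 13192 and the 4007 gene models. The level of at least 5 FPKM leaves fewer gene models to test, so its lower counts are not smaller shares called. With the replicate number as a block the calls were 2933, 5966 and 3051. Same-numbered libraries had correlations of deviations from -0.11 to 0.11. Weak correlations cannot show whether or not the numbers stand for pairs. The cause of these changes was not tested. Few reads limit the values of at least the 12 members with under 10 reads in a 1 µM library, since recovered read numbers are upper values.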
